A study of Mus musculus with 24 samples.

Results

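The 10 genes described here belong to the machinery that presents peptides to T cells. They were listed by name and make up 10 of the 23972 genes in the table. Of these, 6 serve MHC class I (*H2-K1*, *H2-D1*, *B2m*, *Tap1*, *Tapbp*, and *Psmb8*) and 4 serve MHC class II (*H2-Aa*, *H2-Ab1*, *H2-Eb1*, and *Cd74*). All 10 were counted in every library.

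MHC class I molecules display peptides of cytosolic proteins on nearly all nucleated cells and are read by CD8+ T cells. The proteasome cuts the proteins, the TAP transporter moves the peptides into the endoplasmic reticulum, and tapasin holds an empty heavy chain and its beta-2 microglobulin partner at the transporter until a peptide binds. MHC class II molecules display peptides of engulfed proteins to CD4+ T cells, chiefly on dendritic cells, B cells, and macrophages. In liver, hepatocytes carry class I, whereas class II is mostly a product of resident and infiltrating leukocytes.

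Livers came from female mice in 4 groups. Controls were *Lmna* fl/fl mice without Cre (genotype label Lmna.WT), and *Lmna* ADKO mice were *Lmna* fl/fl mice with *Adipoq*-Cre (label Lmna.KO), a model of lipodystrophy in which lamin A/C is lost from adipocytes. The floxed allele is thus shared by all groups, and hepatocytes are not the target of this Cre. By the study's methods, all mice ate a high-fat diet at room temperature and received vehicle or an AAV8 vector. Treated groups carry the label Rescue, taken here to mean mouse FGF21 after the paper's account of the liver experiment. There were 7 vehicle-treated controls, 3 FGF21-treated controls, 6 vehicle-treated *Lmna* ADKO mice, and 8 FGF21-treated *Lmna* ADKO mice, with 1 library each.

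Total counts ranged from 19863304 to 21510054 per library. *Lmna* in liver is no check of the genotype labels, because the deletion is in adipocytes. *Fgf21* did not set the treated groups apart, with 1.90 to 10.8 CPM (counts relative to the TMM library size) in vehicle-treated controls, 3.14 to 7.40 CPM in FGF21-treated controls, 4.63 to 10.6 CPM in vehicle-treated *Lmna* ADKO mice, and 2.19 to 9.99 CPM in FGF21-treated *Lmna* ADKO mice. Beside the other libraries of their genotype, short genes were high relative to long ones in 3 libraries. These were vehicle-treated control 3, FGF21-treated control 3, and FGF21-treated *Lmna* ADKO 7. Results that rest on them are given with and without them. Animal numbers in the labels have 3 digits in 6 of the 7 vehicle-treated controls and in 1 of the 6 *Lmna* ADKO mice given vehicle, in 0 of the 3 FGF21-treated controls, and in 4 of the 8 *Lmna* ADKO mice given FGF21, and 4 digits in the others. The labels do not say what this number series means. Fewer cells of a type and less RNA per cell cannot be told apart in RNA from whole liver.

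Of the 10 genes, 8 lie on mouse chromosome 17 (build GRCm38). *Tapbp* spans chr17:33915899-33929292, *H2-K1* chr17:33996017-34000347, *Tap1* chr17:34187553-34197225, *Psmb8* chr17:34197721-34201454, *H2-Ab1* chr17:34257689-34269419, *H2-Aa* chr17:34282744-34287823, *H2-Eb1* chr17:34305867-34316674, and *H2-D1* chr17:35262730-35267499. *B2m* lies at chr2:122147686-122153083 and *Cd74* at chr18:60803848-60812652. *Tap1* and *Psmb8* are thus neighbors, and the class II chains follow them on the same chromosome.

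The promoters of *H2-K1*, *H2-D1*, and *H2-Q7* are shown first, because the same short elements stand in each. The part of these elements in the levels of the genes was not tested. Sequences are from RefSeq on GRCm38.p6, run from 250 bases before to 50 after each listed start, and were found for 8 of the 10 genes. Capitals mark CCAAT, the core of the Y box, and GAANNGAAA, a spelling of the core of an interferon-stimulated response element, on either strand.

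H2-K1 (chr17:34000298-34000597, minus strand): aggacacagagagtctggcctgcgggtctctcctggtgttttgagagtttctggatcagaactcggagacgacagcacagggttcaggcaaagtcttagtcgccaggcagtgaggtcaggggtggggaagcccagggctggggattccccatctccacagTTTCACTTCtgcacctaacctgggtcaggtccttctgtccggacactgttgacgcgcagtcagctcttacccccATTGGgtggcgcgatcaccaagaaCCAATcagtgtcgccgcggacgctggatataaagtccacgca

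H2-D1 (chr17:35262844-35263143, plus strand): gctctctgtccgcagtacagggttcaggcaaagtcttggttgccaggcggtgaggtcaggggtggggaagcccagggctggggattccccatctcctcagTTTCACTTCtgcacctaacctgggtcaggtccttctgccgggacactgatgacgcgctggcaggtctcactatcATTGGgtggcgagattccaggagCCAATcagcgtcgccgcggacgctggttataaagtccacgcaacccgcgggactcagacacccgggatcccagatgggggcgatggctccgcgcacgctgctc

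H2-Q7 (chr17:35438905-35439204, plus strand): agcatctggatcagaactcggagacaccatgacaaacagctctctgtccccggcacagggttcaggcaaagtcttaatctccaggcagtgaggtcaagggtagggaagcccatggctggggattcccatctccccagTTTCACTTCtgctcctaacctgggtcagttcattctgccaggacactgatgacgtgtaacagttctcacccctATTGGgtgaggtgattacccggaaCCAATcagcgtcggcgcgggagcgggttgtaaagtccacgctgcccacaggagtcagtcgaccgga

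CCAAT occurred 2 times and GAANNGAAA 1 time in each of these promoters. GAANNGAAA occurred 0 times in those found for *B2m*, *Tap1*, *Tapbp*, *Psmb8*, *H2-Aa*, and *H2-Eb1*. Longer spellings of this element were not searched. The promoter found for *B2m* holds gaaactgaaa, which GAANNGAAA does not match, so a count of 0 does not show that such an element is absent. Over all 32841 RefSeq promoters of this length, 37.4% held CCAAT and 7.52% held GAANNGAAA. *H2-K1* and *H2-D1* encode the classical class I heavy chains of these mice, and *H2-Q7* a nonclassical one whose level is given further on.

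The next promoters belong to *Tap1*, the member that passed the test in vehicle-treated mice, and to a pair of class II chains that moved together from library to library. Capitals mark CCAAT and TGACGTCA, a cyclic AMP response element. TGACGTCA was in 1.79% of all promoters.

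Tap1 (chr17:34187306-34187605, plus strand): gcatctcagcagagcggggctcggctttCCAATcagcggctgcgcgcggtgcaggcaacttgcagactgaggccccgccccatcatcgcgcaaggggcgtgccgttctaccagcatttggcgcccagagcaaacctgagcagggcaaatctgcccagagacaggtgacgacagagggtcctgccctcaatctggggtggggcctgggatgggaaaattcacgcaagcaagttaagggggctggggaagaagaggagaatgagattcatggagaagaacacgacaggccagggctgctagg

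H2-Aa (chr17:34287774-34288073, minus strand): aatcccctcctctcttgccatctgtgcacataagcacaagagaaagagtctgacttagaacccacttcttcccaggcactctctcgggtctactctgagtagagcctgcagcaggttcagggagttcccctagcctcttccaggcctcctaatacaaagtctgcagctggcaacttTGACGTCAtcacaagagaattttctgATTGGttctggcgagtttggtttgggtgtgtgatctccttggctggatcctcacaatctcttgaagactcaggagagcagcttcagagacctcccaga

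H2-Eb1 (chr17:34305617-34305916, plus strand): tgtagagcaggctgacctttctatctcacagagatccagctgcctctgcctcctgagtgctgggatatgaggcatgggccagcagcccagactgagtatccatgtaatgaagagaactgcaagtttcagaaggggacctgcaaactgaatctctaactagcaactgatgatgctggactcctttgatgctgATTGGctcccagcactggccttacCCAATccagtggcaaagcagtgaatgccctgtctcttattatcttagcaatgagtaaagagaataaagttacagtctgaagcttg

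*Tap1* held CCAAT 1 time, *H2-Aa* held CCAAT and TGACGTCA 1 time each, and *H2-Eb1* held CCAAT 2 times. The listed promoters of *Tap1* and of *Psmb9*, an immunoproteasome gene, overlap on opposite strands. A match is a run of letters and no evidence of binding.

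The level of the 10 genes per length was compared first. In vehicle-treated controls, *B2m*, the invariant light chain of class I, stood at 1477 ± 155 CPM per kilobase of transcript (SD, n = 7). *H2-K1* followed at 1022 ± 181 and *H2-D1* at 440.0 ± 36.1 CPM per kilobase. The ranges of *B2m* and *H2-K1* touched, with a lowest *B2m* of 1318 and a highest *H2-K1* of 1329 CPM per kilobase. *Cd74*, the invariant chain that guides class II through the cell, was the highest class II member at 138 ± 22.8 CPM per kilobase. *H2-Aa* was at 62.9 ± 11.7, *H2-Ab1* at 50.6 ± 11.6, *Tapbp* at 40.9 ± 2.60, *H2-Eb1* at 37.4 ± 10.1, and *Psmb8* at 37.1 ± 5.05 CPM per kilobase. Each of these 5 had a range that overlapped that of its neighbor in this order, while the lowest *H2-Aa* (50.7) was above the highest *Tapbp* (45.9) and the highest *Psmb8* (41.8 CPM per kilobase). *Tap1* was lowest at 14.5 ± 1.36 CPM per kilobase.

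The question of the first comparison is how the liver of vehicle-treated lipodystrophic mice differs from that of vehicle-treated controls. *Tap1*, a subunit of the peptide transporter, fell, while the heavy chains, *B2m*, and all 4 class II members did not pass the test. A call required a fold above 1.5 besides an adjusted p under 0.05 (edgeR). None of the 10 genes was called (0, against 8.48% of all genes), and 1 passed the adjusted p alone, against 15.1% of all genes. With an unadjusted p under 0.05 there were 3 (6481 of all 23972 genes), and DESeq2 put 2 under the adjusted p (4393 of its 23961 genes).

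*Tap1* ran from 37.8 CPM through a median of 41.8 to 48.3 CPM in the 7 vehicle-treated controls. It ran from 23.2 through 29.9 to 35.2 CPM in the 6 vehicle-treated *Lmna* ADKO livers. Each *Lmna* ADKO liver was below each control, as for 3.73% of all genes. The log2 fold change was -0.54 (SE 0.13, 95% interval -0.81 to -0.27, edgeR adjusted p = 0.00523), which is 0.689 of the control level. Across the other settings tried, its adjusted p ran from 0.00032 to 0.0221. Among libraries with 3-digit animal numbers, the 1 *Lmna* ADKO liver had 35.2 CPM of *Tap1* and the 6 controls 37.8 to 48.3 CPM. Among those with 4 digits, the 5 *Lmna* ADKO livers had 23.2 to 32.3 CPM and the 1 control 46.0 CPM. With the number series as a covariate the log2 fold change of *Tap1* was -0.56 (adjusted p = 0.0221).

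*Tapbp* encodes tapasin. Its values were 111.8, 117.9, and 132.9 CPM (lowest, median, and highest) in vehicle-treated controls and 86.2, 95.1, and 101.4 CPM in vehicle-treated *Lmna* ADKO livers. Again the groups did not overlap, as for 3.73% of all genes in this direction. The log2 fold change of -0.32 (SE 0.13, 95% interval -0.59 to -0.05) did not pass the test in the fit of all groups (adjusted p = 0.103). It passed when only the compared groups were fitted (log2 fold change -0.31, adjusted p = 0.00707) and when the 3 libraries with high short genes were left out (-0.31, adjusted p = 0.0141).

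*Psmb8* encodes the immunoproteasome subunit that replaces *Psmb5*. It ran from 47.3 through 64.1 to 68.0 CPM in vehicle-treated controls and from 34.9 through 38.6 to 53.8 CPM in vehicle-treated *Lmna* ADKO livers. The groups overlapped only through the 1 *Lmna* ADKO liver with a 3-digit number, *Lmna* ADKO 1, at 53.8 CPM, and the others were below all controls. The log2 fold change was -0.58 (SE 0.22, 95% interval -1.03 to -0.12, adjusted p = 0.0812). *Psmb8* passed the adjusted p with only the compared groups (-0.57, adjusted p = 0.000528), without the 3 libraries (-0.54, adjusted p = 0.00625), and with DESeq2 (-0.58, adjusted p = 0.0420).

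The heavy chains and their light chain were not shown to differ. *H2-K1* ran from 1291 through 1556 to 2152 CPM in controls and from 1317 through 1598 to 1788 CPM in *Lmna* ADKO livers (log2 fold change -0.05, 95% interval -0.34 to 0.23, adjusted p = 0.870). *H2-D1* ran from 804 through 964 to 1008 CPM and from 939 through 996 to 1093 CPM (0.11, 95% interval -0.12 to 0.33, adjusted p = 0.571). *B2m* ran from 1134 through 1200.4 to 1463 CPM and from 1225 through 1340.4 to 1467 CPM (0.08, 95% interval -0.27 to 0.42, adjusted p = 0.830). All 3 intervals leave out the estimate for *Tap1* (-0.54). The interval of *Tap1* (-0.81 to -0.27) overlaps that of *H2-K1*, and a difference between genes was not tested. Of the 100-base windows of the *H2-D1* transcript, 4.64% also occur in transcripts of other genes, so its counts may be shared with them, whereas none of those of *H2-K1*, *B2m*, or *Tap1* do.

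**Figure D1:**
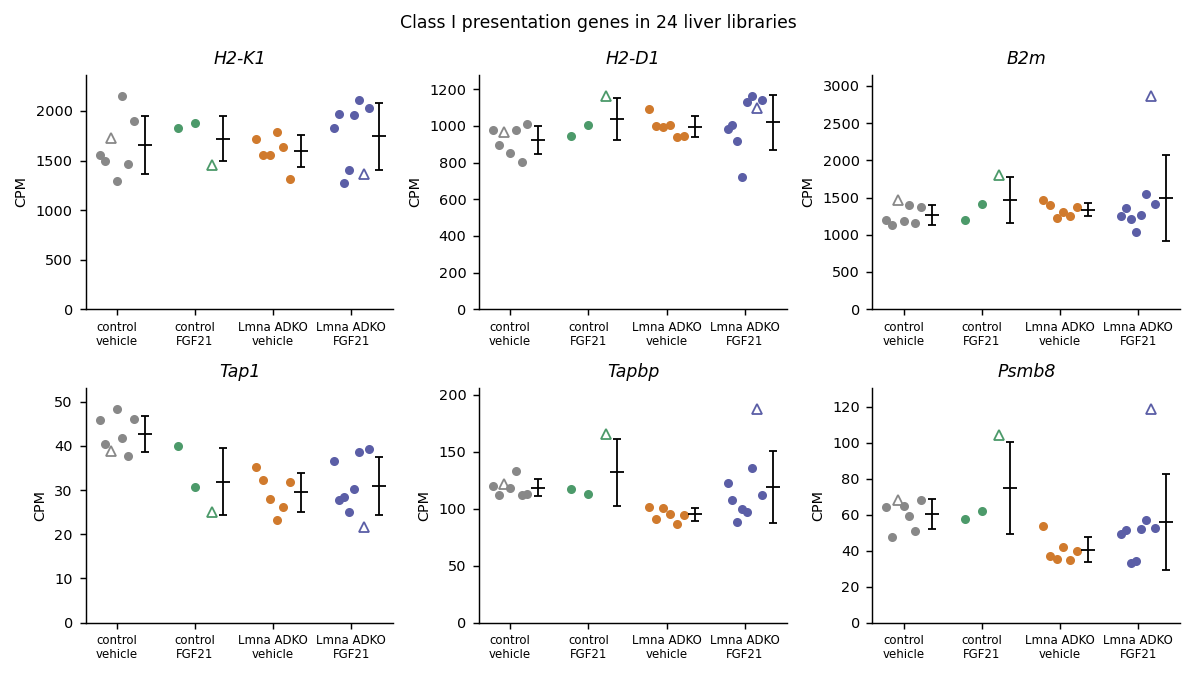
CPM of the 6 class I genes (y axis, linear from 0) in 24 libraries by group, with 1 point per library, open triangles for the 3 libraries in which short genes were high, and bars for the mean and SD. *Tap1* and *Tapbp* of vehicle-treated *Lmna* ADKO livers lie below all vehicle-treated controls, and FGF21-treated *Lmna* ADKO 7 is the highest library for *B2m*, *Tapbp*, and *Psmb8*.

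The class II members were higher on average in vehicle-treated *Lmna* ADKO livers, but the groups overlapped and 1 library carried the difference. *H2-Aa*, the class II alpha chain of the A molecule, ran from 57.2 through 71.1 to 95.8 CPM in controls and from 55.7 through 75.8 to 145.8 CPM in *Lmna* ADKO livers. *H2-Ab1*, its beta chain, ran from 46.6 through 59.9 to 88.6 CPM and from 47.7 through 65.5 to 129 CPM. *H2-Eb1*, the beta chain of the E molecule, ran from 46.3 through 60.2 to 95.8 CPM and from 45.4 through 69.0 to 142 CPM. In all 3 the highest value was that of *Lmna* ADKO 1, and the next highest *Lmna* ADKO liver was within the range of controls. *Cd74* ran from 162 through 186 to 254 CPM and from 150.4 through 199 to 362 CPM, with the same library highest. These are RNA values, and whether the E molecule is made in these livers was not tested.

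The log2 fold changes of the class II members were 0.22 for *H2-Aa* (SE 0.27, adjusted p = 0.650), 0.23 for *H2-Ab1* (SE 0.27, adjusted p = 0.645), 0.30 for *H2-Eb1* (SE 0.31, adjusted p = 0.578), and 0.15 for *Cd74* (SE 0.23, adjusted p = 0.742). Without *Lmna* ADKO 1 they were -0.01 for *H2-Aa*, -0.02 for *H2-Ab1*, 0.04 for *H2-Eb1*, and -0.06 for *Cd74*. The upper 95% bound of *H2-Eb1* was 0.95, so a rise of nearly that size could not be told from none. Over the 4 class II members the median log2 fold change was 0.23, and over the 6 class I members -0.19, beside -0.01 over all 12492 genes whose mean log2 CPM was 0 or more.

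**Figure D2:**
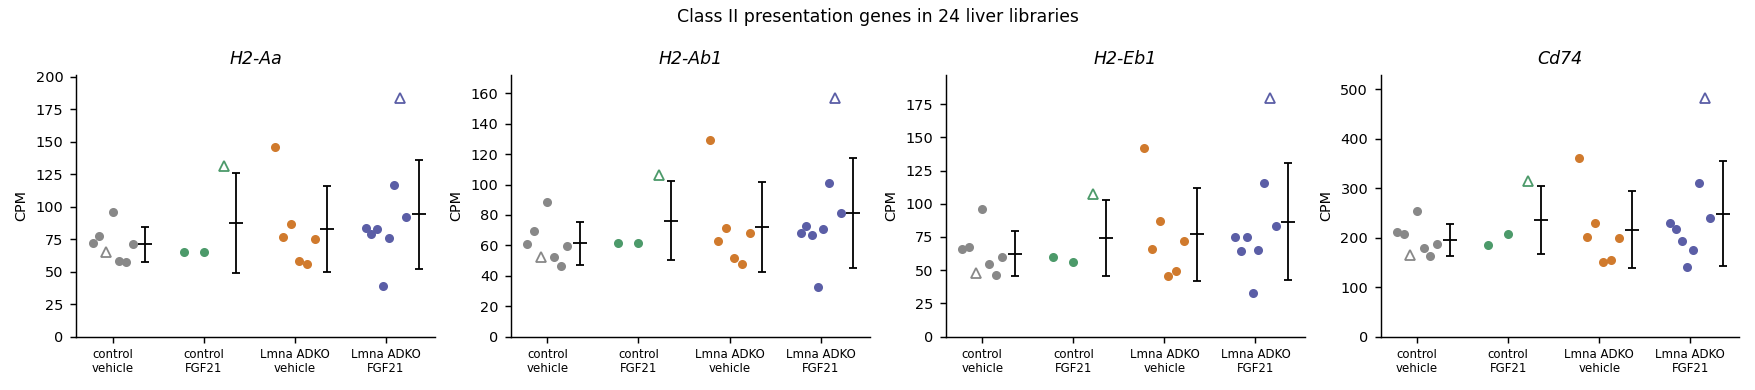
CPM of the 4 class II genes (y axis, linear from 0) in 24 libraries by group, with symbols and bars as for class I. In vehicle-treated *Lmna* ADKO livers 1 library lies apart above the others, for *H2-Aa* at 145.8 CPM.

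Leukocyte markers were set beside the class II values. The summed CPM of the 4 pan leukocyte markers ran from 72.7 to 99.7 in vehicle-treated controls and from 69.1 to 119 in vehicle-treated *Lmna* ADKO livers. For the 12 dendritic cell markers the ranges were 11.6 to 18.3 and 12.7 to 23.7 CPM, for the 9 B cell markers 13.3 to 29.4 and 12.7 to 24.9 CPM, and for the 12 Kupffer cell and macrophage markers 649 to 914 and 470 to 791 CPM. *Lmna* ADKO 1 had the highest sum of its group for each of these lists. No leukocyte marker was at 0 in all libraries of a group. Of these markers, *Itgax*, which encodes CD11c, was called higher in vehicle-treated *Lmna* ADKO livers (log2 fold change 1.10, adjusted p = 0.0110), as was the macrophage gene *Gpnmb* (2.19, adjusted p = 0.0451), and the B cell kinase *Blk* was called lower (-1.05, adjusted p = 0.0395), where 5.12% of all genes were called higher and 3.36% lower. Each of these 3 was the only gene of its list that was called. By sign alone, 9 of the 12 dendritic cell markers and all 9 B cell markers were lower in these livers. So were 7 of the 12 Kupffer cell and macrophage markers, while all 4 pan leukocyte markers were higher. The part of leukocyte content in the class II values was not tested.

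Some markers of the other liver cells differed with genotype too. The 8 hepatocyte markers summed to at least 71963 CPM in every library, as the label liver implies, and 4 of the 8 were called lower in vehicle-treated *Lmna* ADKO livers and 0 higher, against 3.36% of all genes lower and 5.12% higher. Of 8 stellate cell markers 3 were called higher and 0 lower, of 7 cholangiocyte markers 1 higher and 0 lower, of 7 sinusoidal endothelium markers 1 higher and 0 lower, and of 11 T and NK cell markers 0 in either direction (5 with an unadjusted p under 0.05, against 6481 of all 23972 genes, edgeR). The summed cholangiocyte markers ran from 27.6 to 51.9 CPM in vehicle-treated controls and from 86.6 to 197 CPM in vehicle-treated *Lmna* ADKO livers, and the summed stellate cell markers from 139 to 264 and from 170.2 to 337 CPM. By sign alone, 3 sinusoidal endothelium markers were higher and 4 lower (median log2 fold change -0.27). Among the T and NK cell markers 1 was higher and 10 lower (median -0.58). The part of cell composition in the class I values was not tested.

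The second comparison asks the same of FGF21-treated mice. No member was called (edgeR, 0 of 10, against 2.88% of all genes), and 0 passed the adjusted p alone (3.85% of all genes). An unadjusted p under 0.05 was found for 0 members (4063 of all 23972 genes). DESeq2 put 0 members under the adjusted p (1762 of its 23961 genes). The 690 genes called of all genes became 339 without FGF21-treated control 3, 416 without FGF21-treated control 2, and 1149 without FGF21-treated *Lmna* ADKO 7. *Tap1* was 25.0, 30.8, and 40.1 CPM in the 3 FGF21-treated controls and ran from 21.6 through 29.3 to 39.4 CPM in the 8 FGF21-treated *Lmna* ADKO livers. The groups overlapped throughout (log2 fold change -0.05, 95% interval -0.37 to 0.28). *Tapbp* was 113, 117, and 165 CPM in FGF21-treated controls and ran from 87.9 through 109.7 to 187 CPM in FGF21-treated *Lmna* ADKO livers (-0.15, 95% interval -0.47 to 0.18). In both groups the highest *Tapbp* was that of a library in which short genes were high.

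*Psmb8* was 57.7, 62.3, and 104 CPM in FGF21-treated controls and ran from 33.3 through 51.7 to 119 CPM in FGF21-treated *Lmna* ADKO livers (log2 fold change -0.42, adjusted p = 0.434). This value turned on 1 library in either group. Without FGF21-treated *Lmna* ADKO 7 it was -0.68 (adjusted p = 0.0175), and without FGF21-treated control 3 it was -0.10 (adjusted p = 0.921). The heavy chains and *B2m* had log2 fold changes of 0.02 for *H2-K1* (95% interval -0.33 to 0.36), -0.03 for *H2-D1* (95% interval -0.30 to 0.25), and 0.02 for *B2m* (95% interval -0.40 to 0.43). Class II members had log2 fold changes from 0.08 for *Cd74* to 0.22 for *H2-Eb1*, with a 95% interval of -0.58 to 1.02 for *H2-Eb1*.

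The remaining comparisons ask what the treatment did within a genotype. They share libraries with those above, and each is given by its own values. In controls, 0 of the 10 genes were called, against 0.0542% of all genes (13 genes, and 3 to 26 when single libraries were left out, lowest without FGF21-treated control 2 and highest without vehicle-treated control 6), and 1 had an unadjusted p under 0.05 (1476 of all genes), namely *Tap1* (log2 fold change -0.42, 95% interval -0.76 to -0.08, adjusted p = 0.726). Its 3 FGF21-treated values of 25.0, 30.8, and 40.1 CPM reached into the vehicle range of 37.8 to 48.3 CPM. The lowest was that of FGF21-treated control 3, and without this library the log2 fold change of *Tap1* was -0.27. Of the 10 genes, 0 then had an unadjusted p under 0.05 (1044 of all genes), as also without all 3 libraries in which short genes were high (1213 of all genes). Class II members were at 0.25 to 0.31 on the log2 scale, and without FGF21-treated control 3 at -0.13 for *H2-Aa*, -0.0014 for *H2-Ab1*, -0.12 for *H2-Eb1*, and 0.01 for *Cd74*. That library had 131 CPM of *H2-Aa*, while the other FGF21-treated controls both had 65.0 CPM.

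In *Lmna* ADKO mice, 0 of the 10 genes were called in the comparison of FGF21 with vehicle, and so were 0 of all genes (0%, edgeR), while DESeq2 called 15 genes and none of the 10. Without FGF21-treated *Lmna* ADKO 3, edgeR called 61 genes, 21 higher and 40 lower, and 0 of the 10. With an unadjusted p under 0.05 there were 1608 of all genes and 2 of the 10, *Tapbp* (log2 fold change 0.32, 95% interval 0.06 to 0.58) and *Psmb8* (0.47, 95% interval 0.03 to 0.91). *Psmb8* had an adjusted p of 0.704. FGF21-treated *Lmna* ADKO 7 was the highest library for both, and without it the log2 fold changes were 0.20 for *Tapbp* and 0.22 for *Psmb8*. *Tap1* was at 0.07 (95% interval -0.19 to 0.33), so that its level in FGF21-treated *Lmna* ADKO livers was not shown to differ from that with vehicle. Class II members were at 0.16 to 0.20, and without FGF21-treated *Lmna* ADKO 7 at -0.03 for *H2-Aa*, -0.03 for *H2-Ab1*, -0.07 for *H2-Eb1*, and -0.0034 for *Cd74*.

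Whether the genotype difference depended on treatment was tested by the interaction. None of the 10 genes passed it (0 called, against 0.00417% of all genes), and 1 had an unadjusted p under 0.05 (1165 of all 23972 genes). That was *Tap1*, with an interaction of 0.49 on the log2 scale (SE 0.21, adjusted p = 0.984), so the difference of its genotype effects with and without FGF21 was not shown. Without FGF21-treated control 3 the interaction of *Tap1* was 0.35. Of the 10 genes, 0 then had an unadjusted p under 0.05 (1020 of all genes). Without all 3 libraries in which short genes were high, 1 of the 10 did (1139 of all genes).

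**Figure D3:**
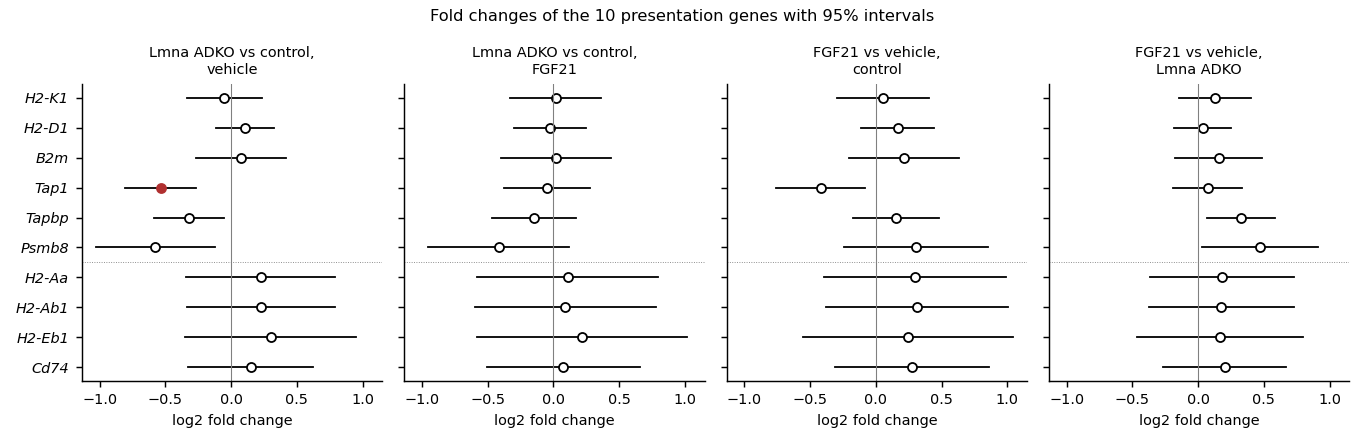
Log2 fold changes (x axis) with 95% intervals of the 10 genes in 4 comparisons, filled where the adjusted p was under 0.05. The filled point is *Tap1* in vehicle-treated mice at -0.54, and the class II genes have the widest intervals.

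The other genes of class I presentation were then followed as a list. Of 20 other class I heavy chains and related molecules in vehicle-treated mice, 3 were called higher (5.12% of all genes) and 4 lower (3.36% of all genes) in *Lmna* ADKO livers, and 12 did not pass the adjusted p. The nonclassical chain *H2-T23* is a ligand of an inhibitory receptor of NK cells. It was 385 ± 28.2 CPM (SD, n = 7) in controls and fell to 248 ± 29.3 CPM (SD, n = 6), without overlap, as for 3.73% of all genes. Its log2 fold change was -0.63 (adjusted p = 0.000564). *H2-Q6* (-0.64, adjusted p = 0.000301), *H2-Q7* (-0.61, adjusted p = 0.00320), and *H2-T10* (-0.64, adjusted p = 0.00854) fell as well. *H2-Q7* ran from 90.5 through 108 to 131 CPM in controls and from 60.0 through 71.3 to 92.3 CPM in *Lmna* ADKO livers.

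Other heavy chains rose. *H2-Q1* ran from 3.94 through 5.56 to 11.1 CPM in vehicle-treated controls and from 23.8 through 27.1 to 38.4 CPM in vehicle-treated *Lmna* ADKO livers (log2 fold change 2.15, adjusted p = 8.65e-07), with no overlap, as for 4.22% of all genes in this direction. *Mr1*, which presents vitamin B metabolites to innate-like T cells, rose from 4.03 ± 1.07 CPM to 6.72 ± 0.895 CPM (0.74, adjusted p = 0.000771). *H2-Q10*, a class I chain secreted by the liver, rose from 1945 ± 313 CPM to 2845 ± 329 CPM (0.55, adjusted p = 0.00214, under the fold of 1.5). *H2-Q2* rose at a level near 1 CPM or below (1.05, adjusted p = 0.0102). Counts of the Q and T genes are uncertain, since transcripts of other genes share 13.1% of the 100-base windows of *H2-Q1*, 10.8% of those of *H2-Q6*, 21.9% of those of *H2-Q7*, 11.8% of those of *H2-T10*, and 7.28% of those of *H2-T23*.

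Of 13 other genes of class I processing, 2 were called lower in vehicle-treated *Lmna* ADKO livers (3.36% of all genes) and 0 higher (5.12% of all genes). *Nlrc5*, the transactivator of class I genes, ran from 17.2 through 19.1 to 21.7 CPM in controls and from 10.7 through 12.3 to 15.0 CPM in *Lmna* ADKO livers (log2 fold change -0.65, adjusted p = 0.000475). *Psmb10*, an immunoproteasome subunit, ran from 46.0 through 54.2 to 65.7 CPM and from 28.8 through 33.5 to 40.6 CPM (-0.71, adjusted p = 0.00625). The groups did not overlap for either gene, as for 3.73% of all genes in this direction. *Tap2*, the partner of *Tap1* in the transporter, fell by 0.38 on the log2 scale (adjusted p = 0.0230), again with no overlap. *Psme3*, a proteasome activator of the nucleus, rose by 0.28 (adjusted p = 0.0249). *Psmb9* was at -0.34 (adjusted p = 0.122), and the constitutive subunits *Psmb5*, *Psmb6*, and *Psmb7* were at 0.31, -0.13, and 0.11, with 0 of 3 under the adjusted p.

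Of 25 genes of the interferon pathway, which drives class I expression, 10 passed the adjusted p with lower values in vehicle-treated *Lmna* ADKO livers and 0 with higher values, against 6.76% of all genes lower and 8.35% higher. Of these, 5 were called, namely *Igtp* (log2 fold change -0.98), *Gbp3* (-0.71), *Iigp1* (-0.71), *Gbp7* (-0.66), and *Irf9* (-0.59). *Igtp*, an interferon-inducible GTPase, was 85.1 ± 9.66 CPM (SD, n = 7) in controls and 43.3 ± 11.4 CPM in *Lmna* ADKO livers (SD, n = 6). *Irf9*, the DNA-binding subunit of the transcription factor complex that forms after type I interferon, fell from 43.4 ± 3.41 CPM to 28.9 ± 3.61 CPM. The others under the adjusted p were *Ifnar2* (-0.57), *Irf7* (-0.58), *Irf1* (-0.52), *Stat2* (-0.44), and *Irgm1* (-0.39). *Ifng* was at or below 0.187 CPM in each library of these groups. The median log2 fold change of the list was -0.22. Of the windows of *Gbp7*, 10.2% are shared with other genes. That these genes were lower in *Lmna* ADKO livers was known from an earlier analysis of the same libraries and is no independent evidence.

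Of 15 other genes of class II chains and processing, 0 were called, and 1 passed the adjusted p, *Rfxank* (log2 fold change -0.48, adjusted p = 0.0281), a subunit of the complex that binds class II promoters (6.76% of all genes were lower at this adjusted p). *Ciita*, the class II transactivator, was at 0.33 (adjusted p = 0.455), and the peptide exchange chains *H2-DMa* and *H2-DMb1* were at -0.01 and 0.26. None of 6 B7 and co-stimulation genes passed the adjusted p (15.1% of all genes did). An unadjusted p under 0.05 was found for 0 of the 6 (6481 of all 23972 genes, edgeR). Of the 6, 4 had a mean log2 CPM of 0 or more.

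With FGF21 in both genotypes, 4 of the 20 heavy chains were called higher in *Lmna* ADKO livers (1.61% of all genes) and 0 lower (1.26%). The 4 were *H2-Q1* (log2 fold change 2.51, adjusted p = 5.06e-05), *H2-Q2* (2.23, adjusted p = 0.00198), *Mr1* (0.97, adjusted p = 0.00328), and *H2-Q10* (0.73, adjusted p = 0.00579). *H2-T23* (-0.55, adjusted p = 0.0256) and *H2-Q6* (-0.51, adjusted p = 0.0297) fell at the adjusted p alone, as did 1.71% of all genes. Of the 13 processing genes, 0 passed the adjusted p (3.85% of all genes), and 4 had an unadjusted p under 0.05 (4063 of all 23972 genes). *Nlrc5* was at -0.26 (adjusted p = 0.381) and *Psmb10* at -0.62 (adjusted p = 0.0920). Of the 25 interferon genes, *Ifnar2* (-0.61, adjusted p = 0.0150) was called lower and *Irf9* (-0.37, adjusted p = 0.0419) passed the adjusted p alone. None of the genes in these lists passed the adjusted p for FGF21 against vehicle in either genotype (edgeR), where 6 of the 25 interferon genes in *Lmna* ADKO mice and 1 in controls had an unadjusted p under 0.05, against 1608 and 1476 of all 23972 genes.

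**Figure D4:**
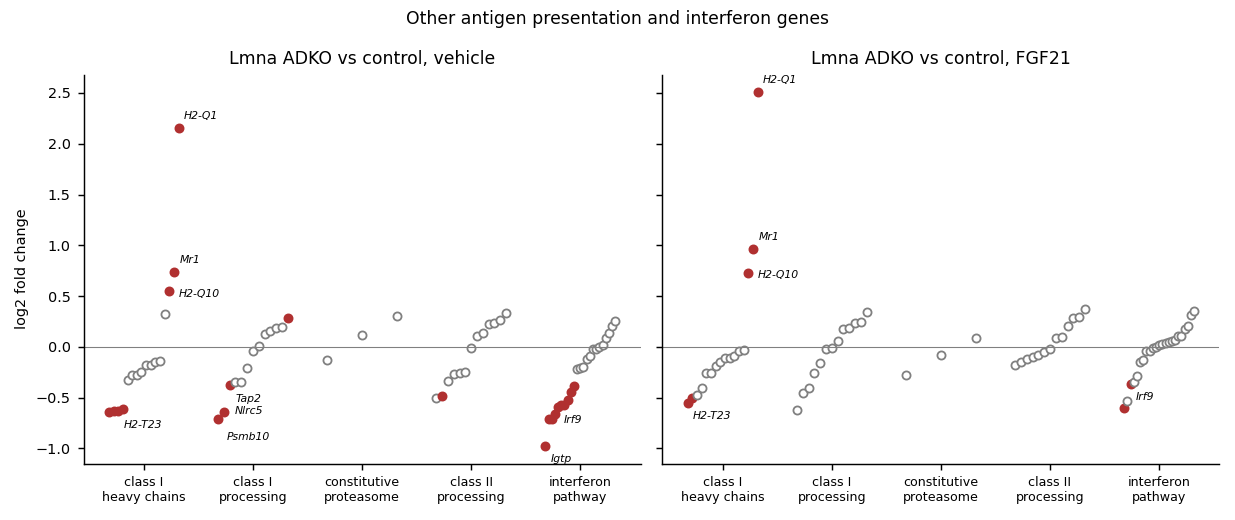
Log2 fold changes (y axis) of the genes of 5 lists (class I heavy chains, class I processing, constitutive proteasome, class II processing, and interferon pathway) whose mean log2 CPM was 0 or more, in vehicle-treated mice and in FGF21-treated mice, with 1 point per gene in rank order within its list and filled where the adjusted p was under 0.05. Of the genes plotted, *H2-Q1* stands highest in both panels at 2.15 and 2.51, and the filled interferon genes lie below 0.

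How the 10 genes varied together was described over the 24 libraries as deviations of log2 CPM from the group mean. The 6 pairs of class II members had a Pearson r of 0.95 to 0.99, and 0.93 to 0.99 without the 3 libraries in which short genes were high. The 15 pairs of class I members had an r of -0.33 to 0.91, and of 0.22 to 0.81 without these libraries. The pair with the highest r of class I, *B2m* and *Psmb8* at 0.91, had an r of 0.74 without them. Depth and gene length are shared by the points, and no test is given. Outside the lists, and among 12353 genes, the genes most like *H2-Ab1* were *Lsp1* (r = 0.90), *Krt18* (0.87), *Clec7a* (0.87), *Capg* (0.87), and *Cyp4f18* (0.86), which had an r of 0.87, 0.80, 0.87, 0.79, and 0.79 in the same order without the 3 libraries. Those most like *H2-K1* were *Oat* (0.85), *Acss2* (0.81), *Stard8* (0.81), *Cyp2j5* (0.78), and *Cd82* (0.78), with 0.83, 0.79, 0.79, 0.79, and 0.76 without these libraries.

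**Figure D5:**
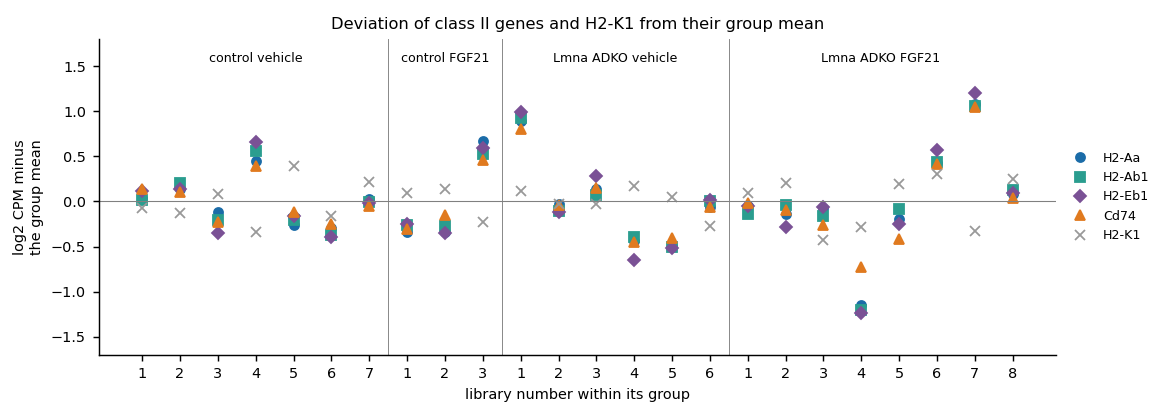
Log2 CPM minus the group mean (y axis) of the 4 class II genes and *H2-K1* in each library (x axis, numbered within groups). The class II symbols lie close together in each library, high in vehicle-treated *Lmna* ADKO 1 and FGF21-treated *Lmna* ADKO 7 and low in FGF21-treated *Lmna* ADKO 4.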

How the data were processed

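Liver RNA of 24 mice was analysed. Per the labels, polyA-selected, strand-specific libraries were made, and the submitters' processing notes name cutadapt 4.8, FastQC 0.11.8, STAR 2.7.8a, RSEM 1.3.3, and the build GRCm38. The authors deposited counts per gene, not normalized, as whole numbers that may be rounded RSEM estimates, which divide reads between similar genes. By their methods, genes at 0 in all samples were removed.

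From the counts of all 23972 genes, edgeR 4.0.16 in R 4.3.3 made TMM library sizes and quasi-likelihood tests (robust, 1 fit of 4 groups, no covariate), with Benjamini-Hochberg adjustment over all genes. Calls required an adjusted p under 0.05 and also a fold above 1.5. Log2 CPM used a prior count of 2. The pipeline was tested on simulated data. Alternatives were DESeq2 1.42.0, its size factors, filterByExpr, only the groups compared, the number series or the gene-length slope as a covariate, the 3 libraries left out, and each library left out in turn. For the gene-length slope, the median of each gene over the libraries of the same genotype was subtracted from its log2 CPM. The slope of this difference on log2 exonic length was taken over 9694 protein-coding genes. It was -0.33, -0.29, and -0.15 in the 3 libraries against -0.11 to 0.13 in the others. Each library has an animal number of its own.

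The 10 genes and all lists were chosen with earlier results of these data known. Named genes are the 10, listed genes called in a genotype comparison or with an adjusted p under 0.05 in a treatment comparison or the interaction, a fixed set of regulators and subunits, and for *H2-K1* and *H2-Ab1* the 5 genes of highest r. *Psme3*, *Rfxank*, *Irf7*, *Stat2*, *Irgm1*, and the leukocyte markers named lie outside this rule and were chosen after their values were seen. Genes were located through GENCODE M21, which holds 23926 of them. Per-kilobase levels use the transcript length. 1 gene of the interferon list is not reported here. 0 columns lacked a sample.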

Additional observations from a re-analysis of the deposited data

Results flagged for a closer look

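The values of 30 groups (10 genes in the 3 groups of 4 or more libraries) were searched for a single library far from the others, which chance finds in about 1 of 20 groups, and 2 were found. Both were FGF21-treated *Lmna* ADKO 7. *B2m* had 2865 CPM there, and the gap to the nearest library was 0.607 of the group's range. *Psmb8* had 119 CPM, with a gap of 0.579 of the range. This is 1 of the 3 libraries in which short genes were high, and the part of gene length in these values was not tested.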

How the results depend on the processing

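In vehicle-treated mice, *Tap1* passed the adjusted p in all settings. The number of the 10 genes that passed it was 1, but 2 with DESeq2 (*Tap1* and *Psmb8*) or the number series as a covariate, and 3 (with *Tapbp*) with only the groups compared, without the 3 libraries in which short genes were high, or with the length slope as a covariate. The count over all genes moved too. It was 3623 of 23972 in the main fit, 4393 of 23961 with DESeq2, and 2288 with the number series. With only the groups compared it was 4540, without the 3 libraries 4391, and with the length slope 5522. Called with a fold above 1.5 were 0 of the 10, but 1 with the number series (*Psmb8*) or by the adjusted p alone, and 0 to 1 when each library was left out (*Tap1* without *Lmna* ADKO 1, log2 fold change -0.59). Of all genes, 2033 were called in the main fit, 1604 with the number series, and 1874 without *Lmna* ADKO 1. With FGF21, leaving out each library gave 0 to 1 called and 0 to 1 under the adjusted p (*Psmb8* without *Lmna* ADKO 7). Without *Lmna* ADKO 7, 1149 of all genes were called and 1827 were under the adjusted p. The calls of the treatment comparisons and the interaction stayed at 0 in all settings. With the number series as a covariate, the log2 fold changes with the opposite sign were -0.0032 for *H2-D1* and -0.11 for *B2m* in *Lmna* ADKO against control with vehicle, and 0.051 for *H2-D1* in *Lmna* ADKO against control with FGF21, and -0.055 for *H2-K1* and -0.028 for *B2m* in FGF21 against vehicle in controls. Without the 3 libraries in which short genes were high, the log2 fold changes with the opposite sign were -0.036 for *H2-K1*, 0.056 for *H2-D1*, and -0.0056 for *B2m* in *Lmna* ADKO against control with FGF21, and -0.039 for *Tapbp*, -0.15 for *H2-Aa*, -0.038 for *H2-Ab1*, -0.17 for *H2-Eb1*, and -0.029 for *Cd74* in FGF21 against vehicle in controls, and -0.051 for *B2m*, -0.034 for *H2-Aa*, -0.032 for *H2-Ab1*, -0.081 for *H2-Eb1*, and -0.010 for *Cd74* in FGF21 against vehicle in *Lmna* ADKO. With the length slope as a covariate, the log2 fold changes with the opposite sign were 0.00032 for *H2-D1* in *Lmna* ADKO against control with FGF21. Signs also turned when single libraries were left out. In *Lmna* ADKO against control with vehicle, these ranges were -0.10 to 0.022 for *H2-K1*, -0.014 to 0.32 for *H2-Aa*, -0.024 to 0.34 for *H2-Ab1*, and -0.061 to 0.23 for *Cd74*. In *Lmna* ADKO against control with FGF21, these ranges were -0.090 to 0.086 for *H2-K1*, -0.090 to 0.062 for *H2-D1*, -0.19 to 0.19 for *B2m*, -0.20 to 0.15 for *Tap1*, -0.28 to 0.044 for *Tapbp*, -0.11 to 0.53 for *H2-Aa*, -0.13 to 0.40 for *H2-Ab1*, -0.033 to 0.58 for *H2-Eb1*, and -0.14 to 0.34 for *Cd74*. In FGF21 against vehicle in controls, these ranges were -0.011 to 0.16 for *H2-K1*, -0.045 to 0.26 for *Tapbp*, -0.012 to 0.46 for *Psmb8*, -0.13 to 0.47 for *H2-Aa*, -0.0014 to 0.45 for *H2-Ab1*, and -0.12 to 0.42 for *H2-Eb1*. In FGF21 against vehicle in *Lmna* ADKO, these ranges were -0.045 to 0.22 for *B2m*, -0.027 to 0.42 for *H2-Aa*, -0.025 to 0.43 for *H2-Ab1*, -0.074 to 0.43 for *H2-Eb1*, and -0.0034 to 0.41 for *Cd74*. None of the values with a turned sign passed the test, and the cause was not tested. No paired analysis was possible because no animal number is shared between groups. With 3 FGF21-treated controls, comparisons with them are the least precise. The class II genes, at 32 to 481 CPM, had the widest intervals. The source of their spread between libraries was not tested.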
